A study of Homo sapiens with 18 samples.

Results

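The protein kinase C (PKC) and protein kinase D (PKD) isoforms are a family of serine and threonine kinases. The genes followed here were PRKCA, PRKCD, PRKCE, PRKCH, PRKCI, PRKCZ, PRKD1, PRKD2 and PRKD3. They make up 9 of the 18377 genes that have an array row, called a transcript cluster, annotated with 1 gene symbol only. The row of each gene was chosen by its mean log2 signal over all 18 arrays, taking the highest. Each of the 9 genes had a single such row, so that mean decided nothing, and no difference between groups entered the choice of row. The cells were ECV304, an established human line that the labels describe as endothelial with epithelial features, grown to confluence and kept in low serum before treatment. All 6 groups were stimulated with 100 IU/ml of the inflammatory cytokine interleukin-1β (IL-1β). The 3 control groups received medium with it, and the 3 treated groups received aminaphtone, a vasoactive drug used for capillary disorders, at 6 µg/ml. RNA was taken 1, 3 or 6 h after the additions, from 3 independent replicates per group. No group went without IL-1β, so a change over time cannot be told apart from effects of serum withdrawal or time in culture.

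PKC isoforms carry signals from membrane receptors into the cell. When phospholipase C splits a membrane lipid, it leaves diacylglycerol in the membrane and sets off a release of calcium inside the cell. PKCα (PRKCA) needs both, PKCδ, PKCε and PKCη (PRKCD, PRKCE and PRKCH) need diacylglycerol and not calcium, and the atypical PKCι and PKCζ (PRKCI and PRKCZ) need neither and act in cell polarity complexes. The 3 protein kinases D (PRKD1, PRKD2 and PRKD3) also bind diacylglycerol and are switched on when a diacylglycerol-dependent PKC phosphorylates them. In endothelial cells PKC isoforms are known for loosening cell junctions and for carrying inflammatory signals to nuclear factor κB (NF-κB), and PKD1 for carrying growth factor signals.

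The values are log2 signals, so a difference of 1 is a doubling, and the differences tested are between groups within a gene. All 9 genes passed the filter on low signal, a mean above 6.193, the 25th percentile of annotated transcript clusters. PRKCB and PRKCQ, also of the family, lay close to it, with means of 6.29 and 6.22, and neither was called in any comparison. The labelled cell type was checked against 10 endothelial markers, of which 4 lay above the filter, 1 of these, ESAM at 8.82, also above the median of annotated transcript clusters (7.534). PECAM1 at 5.30, VWF at 6.03 and KDR at 5.45 were among the 6 below the filter. All 11 epithelial and urothelial markers measured lay above the filter, and 3 of them above that median, the keratins KRT8 (12.38), KRT18 (11.75) and KRT7 (11.36), while CDH1 (6.53), GATA3 (6.65) and UPK3A (6.51) lay close to the filter. Endothelial is the name the labels give the cells, and the 6 of 10 endothelial markers below the filter did not bear it out. The 3 control arrays of 1 h stood apart from each other. They correlated at 0.889 to 0.963 over the annotated transcript clusters above the filter, against at least 0.970 within any other group. Calls that changed when 1 of these controls was left out are described with the results.

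Aminaphtone went with a higher PRKCA signal, 1.53-fold on average over the 3 times, and this was the single kinase gene of the 9 to pass the test for treatment. PRKCE and PRKD1 were also higher in every aminaphtone array than in every control array at both 3 and 6 h, but their average differences missed the threshold. The other 6 genes held no such order. Over time PRKCD rose from 1 to 3 h in both arms and PRKD1 fell from 1 to 6 h in both arms. PRKCH was called lower in the aminaphtone arm only, and PRKD3 higher in the control arm only. A difference between the arms was not shown for PRKCH or PRKD3, and the PRKD3 calls were lost in several fits with 1 array left out. A gene was called when its p-value from a limma model of all 18 arrays, adjusted for the 15796 transcript clusters tested by the method of Benjamini and Hochberg, was under 0.05. Because each array pools the RNA of a culture, fewer cells expressing a gene and less of its RNA per cell cannot be told apart.

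**Figure D1:**
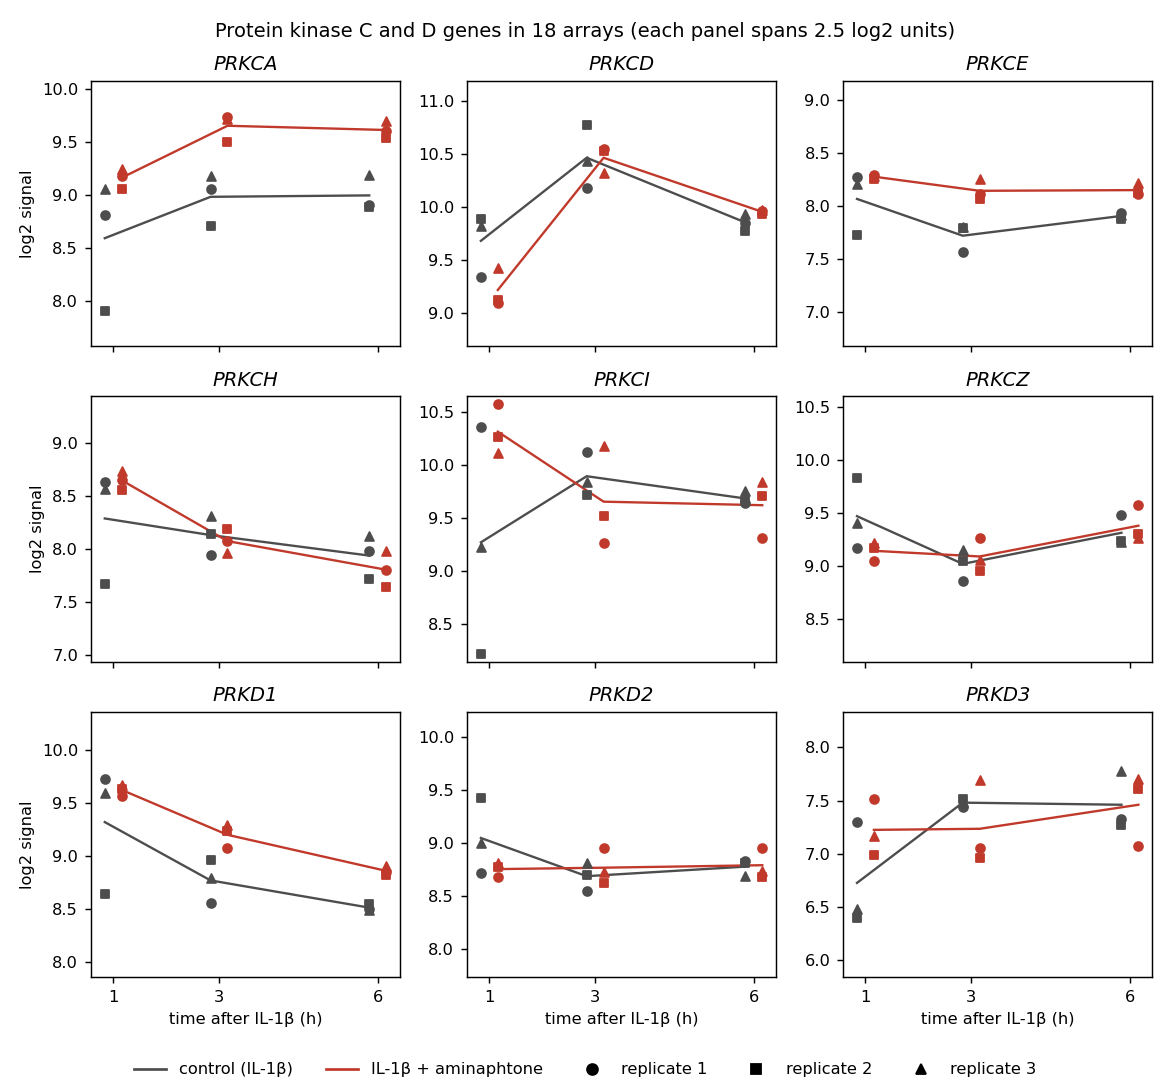
Log2 signal (vertical axis) of each of the 9 genes on the 18 arrays against time after the additions in hours, with control arrays in grey and aminaphtone arrays in red, shifted sideways a little so that both can be seen, 1 point per array and a line through the group means. The PRKCA, PRKCE and PRKD1 points of the aminaphtone arrays lie above all control points at 3 and 6 h, PRKCD peaks at 3 h in both arms, and the control points of 1 h are the most scattered for most genes.

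None of the 9 genes was called for aminaphtone against control at a single time. In those comparisons 0.0886% of all transcript clusters were called at 1 h, 0.038% at 3 h and 0.108% at 6 h, so few genes of any kind passed. Here and below, called shares of all transcript clusters are shares of those tested in the same fit. At an unadjusted p under 0.05 there were 3 of the 9 genes at 1 h (PRKCA, PRKCD and PRKCI), 3 at 3 h (PRKCA, PRKCE and PRKD1) and 1 at 6 h (PRKCA). The corresponding shares of all transcript clusters were 30.8%, 6.5% and 3.93%. For the difference averaged over the times, 1 of the 9 genes was called higher and none lower, where 0.424% of all transcript clusters were called higher. The median average difference was 0.08 over the 9 genes and -0.02 over all transcript clusters tested. All 3 aminaphtone arrays lay above all 3 controls at both 3 and 6 h for 3 of the 9 genes, against 2.84% of all transcript clusters. The deviations of these 3 from their group means went together over the 18 arrays. Their r was 0.94 for PRKCE with PRKD1, 0.73 for PRKCA with PRKCE and 0.67 for PRKCA with PRKD1. They are therefore not 3 independent observations. The members were proposed with earlier results of these data known, so these counts describe the genes and do not test the family.

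PRKCA encodes PKCα, the calcium-dependent isoform. Its log2 signal on control arrays was 8.81, 7.91 and 9.06 at 1 h, 9.06, 8.71 and 9.18 at 3 h, and 8.91, 8.89 and 9.19 at 6 h. On aminaphtone arrays it was 9.18, 9.06 and 9.25 at 1 h, 9.74, 9.50 and 9.72 at 3 h, and 9.60, 9.54 and 9.70 at 6 h. The treated arrays of 3 and 6 h were the 6 highest of all 18, and the groups overlapped at 1 h alone, where treated replicate 2 equalled control replicate 3 at this rounding. The differences were close to each other at the 3 times, 0.57 at 1 h, 0.67 at 3 h and 0.62 at 6 h (SE 0.211 each, limma adjusted p = 0.139, 0.474 and 0.81). Their average was 0.62 (SE 0.122, 95% confidence interval 0.36 to 0.88, limma adjusted p = 0.0239). No difference of the treatment effect between times was detected for PRKCA (limma interaction adjusted p = 0.982).

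The PRKCA call held under all 8 other ways of fitting the data that kept every replicate of the times used. The lowest limma adjusted p, 0.000375, came with the main direction of scatter within groups as a covariate. That covariate shrinks the error by construction, so this fit cannot count for the call. It and the fit without the 1 h arrays were chosen after seeing the data. In the other fits the limma adjusted p ran from 0.00616 to 0.0273. The call rested on the number of arrays all the same. Leaving out any 1 of 9 of the 18 arrays took it just past the threshold, to adjusted p between 0.0512 and 0.0677. Those 9 were aminaphtone replicates 1 and 3 at 1 h, control replicate 2 and aminaphtone replicates 1 and 3 at 3 h, and control replicates 1 and 2 and aminaphtone replicates 2 and 3 at 6 h. Leaving out 1 of the other 9, the scattered controls of 1 h among them, kept the call. Without any of the 1 h arrays the average was 0.64 (limma adjusted p = 0.00433).

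**Figure D2:**
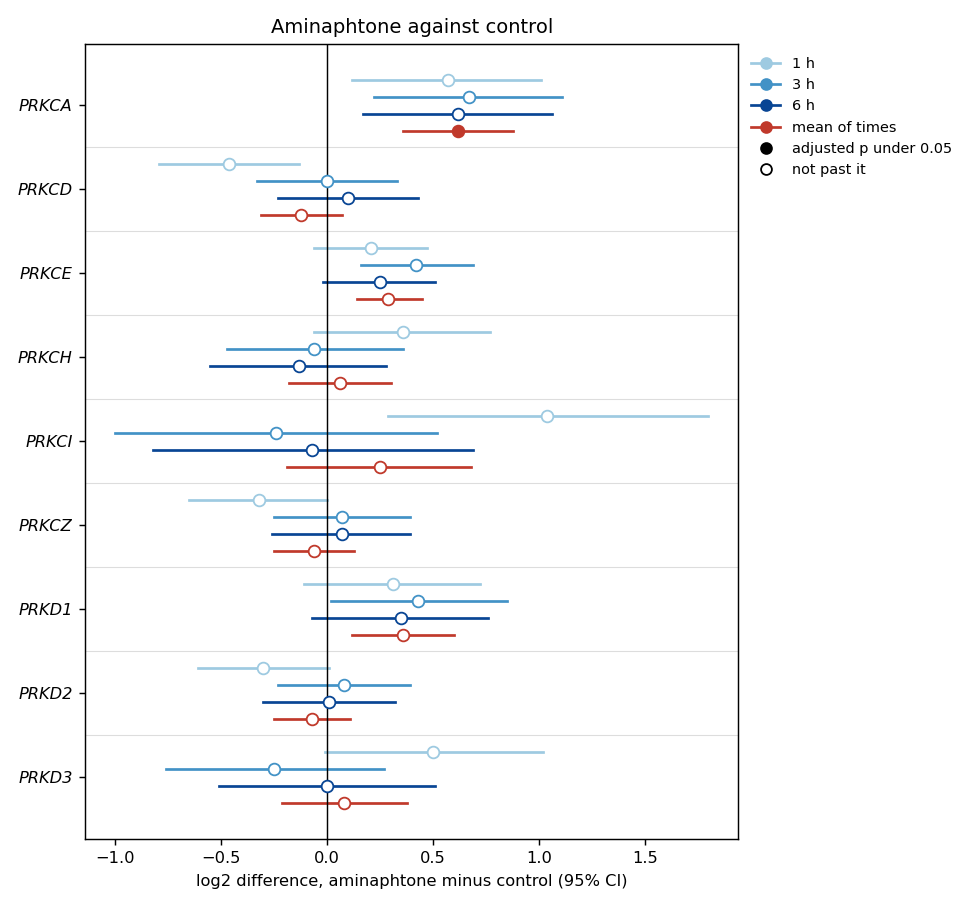
Aminaphtone minus control on the log2 scale (horizontal axis) for each of the 9 genes at 1, 3 and 6 h and averaged over the times, with 95% confidence intervals from the limma fit; a filled point has an adjusted p under 0.05. Only the average for PRKCA is filled, and the PRKCI difference of 1.04 at 1 h has a wide interval, with -0.24 at 3 h and -0.07 at 6 h.

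PRKCE encodes PKCε, one of the calcium-independent isoforms. Control arrays read 8.27, 7.72 and 8.20 at 1 h, 7.56, 7.79 and 7.80 at 3 h, and 7.93, 7.87 and 7.91 at 6 h, and aminaphtone arrays read 8.29, 8.25 and 8.28, then 8.11, 8.06 and 8.25, then 8.11, 8.12 and 8.21. The lowest treated array of 3 or 6 h, at 8.06, lay above the highest control of those times, at 7.93. The treated arrays of 1 h were nearly equal, and 2 of the 3 controls of 1 h lay among or close beneath them. The average difference was 0.29 (SE 0.0724, 95% confidence interval 0.14 to 0.45, 1.23-fold), with a limma adjusted p of 0.068, so PRKCE did not pass. With the replicate number as a block within each time it did (limma adjusted p = 0.0364). Over 3 and 6 h alone, without the 1 h arrays, its average difference was 0.34 (limma adjusted p = 0.0281). PRKCA, PRKCE and PRKD1 were then the 3 of the 9 genes called, where 1.73% of all transcript clusters were called. That fit was chosen after seeing the data and uses the times at which these genes separated, so it cannot count as separate support.

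PRKD1 encodes PKD1, the kinase that diacylglycerol-dependent PKC isoforms switch on. On control arrays it read 9.72, 8.64 and 9.59 at 1 h, 8.55, 8.96 and 8.79 at 3 h, and 8.50, 8.54 and 8.49 at 6 h. On aminaphtone arrays it read 9.56, 9.63 and 9.67, then 9.07, 9.23 and 9.29, then 8.85, 8.82 and 8.90. Both arms stepped down from 1 to 6 h, and the treated arrays sat above the controls at 3 and 6 h but not at 1 h, where control replicate 1 was the highest of the 6. The treatment difference was 0.31 at 1 h, 0.43 at 3 h and 0.35 at 6 h, and 0.36 on average (SE 0.113, 1.29-fold, limma adjusted p = 0.147). It was 0.39 without the 1 h arrays (limma adjusted p = 0.0267), in the same fit chosen after seeing the data. The 1 h value turned to -0.03 (limma adjusted p = 0.919) without control replicate 2 of 1 h, the lowest of that group.

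The fall of PRKD1 with time was called in both arms. It was -0.81 in the control arm (SE 0.196, 95% confidence interval -1.22 to -0.39, 1.75-fold lower at 6 h, limma adjusted p = 0.0066) and -0.77 in the aminaphtone arm (SE 0.196, 1.70-fold lower, limma adjusted p = 0.012). The 6 h arrays lay below every 1 h array of the same arm, including control replicate 2. Each call held when any 1 of the 18 arrays was left out. With only the 6 control arrays of 1 and 6 h in the fit, so that their spread alone set the error, the control call was lost (limma adjusted p = 0.103). The steps from 1 to 3 h, -0.55 in the control arm and -0.42 in the aminaphtone arm, were not called (limma adjusted p = 0.0757 and 0.213). Without control replicate 2 of 1 h both were, at -0.89 (limma adjusted p = 0.000113) and -0.42 (0.00869), while the control step was -0.35 without replicate 1.

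The sequences before the start sites of 4 genes are shown, those of PRKCA, PRKCE and PRKD1 because their treated arrays separated from the controls at 3 and 6 h, and that of PRKCD because it changed with time in both arms. Each is 250 bases upstream of a start listed by RefSeq for build GRCh38.p14, written 5′ to 3′ on the strand of the gene. Capitals mark the GC box GGGCGG, a site bound by Sp family factors, on either strand. The windows are chr17:66302363-66302612 (plus strand) for PRKCA, chr2:45651425-45651674 (plus strand) for PRKCE, chr14:29927848-29928097 (minus strand) for PRKD1, the first of 2 listed starts, and chr3:53160959-53161208 (plus strand) for PRKCD, the first of 3.
PRKCA: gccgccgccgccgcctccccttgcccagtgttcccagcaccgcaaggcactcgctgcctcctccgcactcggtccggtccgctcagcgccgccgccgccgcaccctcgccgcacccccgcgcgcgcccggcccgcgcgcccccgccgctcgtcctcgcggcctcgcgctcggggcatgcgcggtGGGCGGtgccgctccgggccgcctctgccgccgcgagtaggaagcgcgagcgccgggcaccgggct
PRKCE: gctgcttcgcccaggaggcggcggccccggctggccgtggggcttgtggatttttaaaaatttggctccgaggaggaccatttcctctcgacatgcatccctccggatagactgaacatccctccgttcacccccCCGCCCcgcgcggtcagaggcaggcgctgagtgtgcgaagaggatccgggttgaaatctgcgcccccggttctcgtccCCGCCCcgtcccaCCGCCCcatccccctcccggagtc
PRKD1: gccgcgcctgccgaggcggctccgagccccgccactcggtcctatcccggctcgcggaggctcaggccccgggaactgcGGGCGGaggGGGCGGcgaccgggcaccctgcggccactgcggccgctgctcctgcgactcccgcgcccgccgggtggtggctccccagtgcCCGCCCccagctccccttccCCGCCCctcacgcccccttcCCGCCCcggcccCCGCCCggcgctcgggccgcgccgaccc
PRKCD: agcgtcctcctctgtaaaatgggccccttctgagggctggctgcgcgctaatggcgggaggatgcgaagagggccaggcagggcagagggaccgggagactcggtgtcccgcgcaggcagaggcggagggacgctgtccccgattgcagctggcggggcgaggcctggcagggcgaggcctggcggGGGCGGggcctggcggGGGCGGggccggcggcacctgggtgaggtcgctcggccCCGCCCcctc
These windows held 1, 3, 6 and 3 GC boxes, and their GC contents were 82.0%, 66.4%, 82.8% and 75.2%, where the median of 35114 RefSeq windows of this length was 58.0%. The first listed window of all 9 genes held a GC box, which 42.6% of the 35114 windows do. Those 35114 include later listed starts. Of all 16 listed windows of the 9 genes, 13 held a GC box and 1, listed start 4 of PRKCZ, held the NF-κB consensus. The AP-1 motif TGANTCA was in none of the 9 first windows (6.57% of all windows), nor was the NF-κB consensus (5.21%) or the E box CACGTG (6.35%), each read on both strands. The cyclic AMP response element TGACGTCA was in that of PRKCZ (1.65% of all windows) and CCAAT in that of PRKD2 (32.0%). A match describes these letters and is not a bound site.

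PRKCD encodes PKCδ, a calcium-independent isoform known for its part in apoptosis and inflammatory signalling. On control arrays it read 9.34, 9.89 and 9.82 at 1 h, 10.18, 10.78 and 10.44 at 3 h, and 9.85, 9.78 and 9.94 at 6 h. On aminaphtone arrays it read 9.10, 9.13 and 9.43, then 10.55, 10.53 and 10.32, then 9.96, 9.94 and 9.97. The 6 arrays of 3 h were the highest of all 18, with no overlap between 3 h and either other time, and in the aminaphtone arm the 6 h arrays also lay above those of 1 h. From 1 to 3 h PRKCD rose by 0.78 in the control arm (SE 0.157, 95% confidence interval 0.45 to 1.11, 1.72-fold, limma adjusted p = 0.00384). In the aminaphtone arm it rose by 1.24 (SE 0.157, 95% confidence interval 0.91 to 1.57, 2.37-fold, limma adjusted p = 6.68e-05). Both rises held when any 1 of the 18 arrays was left out, and the control rise was lost with only the 2 control groups in the fit (limma adjusted p = 0.147).

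By 6 h PRKCD was 0.73 above its 1 h level in the aminaphtone arm (SE 0.157, 1.66-fold, limma adjusted p = 0.00369) and 0.17 above it in the control arm (limma adjusted p = 0.481), a value that ran from 0.00 to 0.27 with 1 array left out. The drop from 3 to 6 h was -0.61 with control and -0.51 with aminaphtone and passed in neither arm (limma adjusted p = 0.105 and 0.213). In the control arm it passed without control replicate 1 of 1 h (limma adjusted p = 0.0277), control replicate 2 of 1 h (0.0434), control replicate 1 of 3 h (0.0422) or all 1 h arrays (0.0334). At 1 h PRKCD was 0.46 lower with aminaphtone, -0.46 as aminaphtone minus control (limma adjusted p = 0.139), while at 3 and 6 h the difference was 0.00 and 0.10. That the treatment effect differed between times was not shown for PRKCD (limma interaction adjusted p = 0.536). The comparisons of treatment at 1 h and of control times share the control arrays of 1 h, so a low or high array there enters each of them.

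PRKCH encodes PKCη, an isoform known from epithelia. On aminaphtone arrays it read 8.65, 8.56 and 8.74 at 1 h, 8.08, 8.19 and 7.96 at 3 h, and 7.80, 7.64 and 7.98 at 6 h. Control arrays read 8.63, 7.67 and 8.57, then 7.95, 8.14 and 8.31, then 7.98, 7.72 and 8.12. The treated arrays stepped down and those of 1 h lay above all of the later ones, while the controls overlapped between all times, replicate 2 of 1 h being the lowest of the 9. From 1 to 6 h PRKCH fell by 0.84 in the aminaphtone arm (SE 0.197, 95% confidence interval -1.26 to -0.43, 1.79-fold lower, limma adjusted p = 0.00671), and the call held when any 1 of the 18 arrays was left out. In the control arm the difference was -0.35 (limma adjusted p = 0.204), with -0.66 (limma adjusted p = 0.00298) without control replicate 2 of 1 h and -0.18, not called, without replicate 1. A difference between the arms was not shown for PRKCH (limma interaction adjusted p = 0.632).

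PRKD3, which encodes PKD3, read 7.30, 6.39 and 6.48 on control arrays at 1 h, 7.44, 7.51 and 7.49 at 3 h, and 7.33, 7.27 and 7.78 at 6 h. On aminaphtone arrays it read 7.51, 6.99 and 7.17, then 7.05, 6.96 and 7.69, then 7.07, 7.61 and 7.70, with all 3 times overlapping. Control replicates 2 and 3 of 1 h were the 2 lowest arrays of all 18, and replicate 1 was close to the later controls. PRKD3 rose in the control arm by 0.76 from 1 to 3 h (SE 0.244, 1.69-fold, limma adjusted p = 0.0498) and by 0.74 from 1 to 6 h (SE 0.244, 1.67-fold, limma adjusted p = 0.0332). The first call stood at the threshold and held in 4 of 18 fits that left out 1 array each, namely those without control replicate 1 of 1 h, aminaphtone replicate 3 of 3 h, control replicate 3 of 6 h or aminaphtone replicate 1 of 6 h. The second held in 14 of 18, and was lost without control replicate 2 (limma adjusted p = 0.138) or 3 (0.123) of 1 h, or control replicate 1 (0.0542) or 3 (0.154) of 6 h. In the aminaphtone arm the differences were 0.01 and 0.24 (limma adjusted p = 0.991 and 0.555). A difference between the arms was not shown for PRKD3 (limma interaction adjusted p = 0.587).

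**Figure D3:**
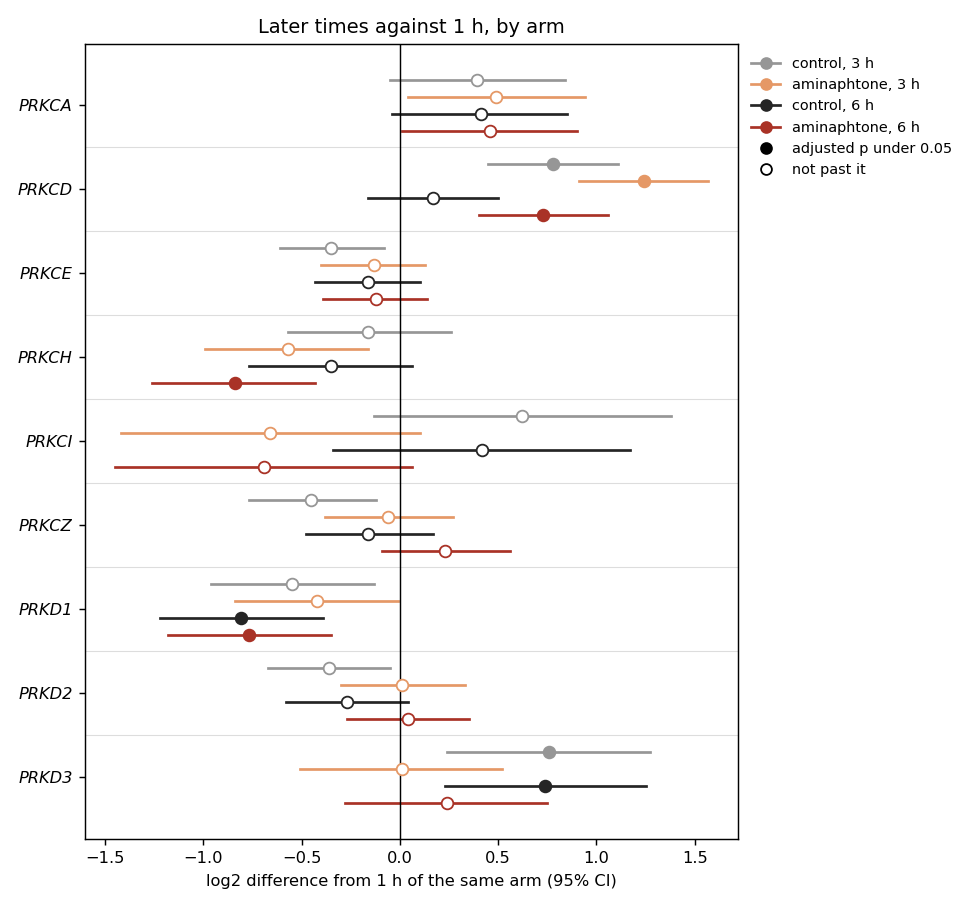
Difference of the 3 h and 6 h arrays from the 1 h arrays of the same arm on the log2 scale (horizontal axis) for the 9 genes, with 95% confidence intervals from the limma fit; a filled point has an adjusted p under 0.05. The PRKCD points of 3 h lie right of 0 in both arms (0.78 and 1.24) and the PRKD1 points of 6 h left of it in both (-0.81 and -0.77).

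Over the whole family, 2 of the 9 genes were called higher and none lower from 1 to 3 h in the control arm, where 4.81% of all transcript clusters were called higher. From 1 to 6 h it was 1 higher and 1 lower, where 11.3% were called higher and 15.2% lower. In the aminaphtone arm 1 gene was called higher from 1 to 3 h (5.09% of all) and 1 higher and 2 lower from 1 to 6 h (6.01% and 10.7% of all). Between 3 and 6 h none of the 9 genes was called by limma in either arm, where 0.513% of all transcript clusters were called in the control arm and 0.266% in the aminaphtone arm. At an unadjusted p under 0.05 there was 1 gene in each arm, PRKCD both times, against 10% and 9.82% of all. For the interaction of treatment and time none of the 9 was called (adjusted p from 0.532 to 0.982, with 0.038% of all called), and 2, PRKCD and PRKCI, had an unadjusted p under 0.05, against 9.23% of all.

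The atypical isoforms were not called in any of the 10 comparisons. PRKCI, whose product PKCι sits in the PAR polarity complex, read 10.36, 8.22 and 9.23 on the control arrays of 1 h, 10.12, 9.72 and 9.84 at 3 h, and 9.64, 9.66 and 9.75 at 6 h. On aminaphtone arrays it read 10.57, 10.26 and 10.11, then 9.26, 9.52 and 10.18, then 9.31, 9.71 and 9.84. The controls of 1 h spread over 2.14 log2 units, more than those of any other of the 9 genes, and the first of them lay among the treated arrays. The 1 h treatment difference was 1.04 (SE 0.359, 2.06-fold, limma adjusted p = 0.139). It was 1.59 (limma adjusted p = 0.00112) without control replicate 1 and 0.52 (limma adjusted p = 0.689) without replicate 2. The control difference from 1 to 3 h, 0.62 (limma adjusted p = 0.279), was 1.17 (0.00357) without replicate 1 and 0.10 (0.877) without replicate 2, so its size depended on which of these arrays was kept.

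PRKCZ encodes PKCζ, the other atypical isoform. It read 9.17, 9.83 and 9.40 on control arrays at 1 h, 8.86, 9.04 and 9.15 at 3 h, and 9.48, 9.23 and 9.22 at 6 h, and 9.04, 9.17 and 9.21, then 9.26, 8.95 and 9.05, then 9.57, 9.30 and 9.26 on aminaphtone arrays. The 3 h controls lay below the 1 h controls, by -0.45 (SE 0.153, limma adjusted p = 0.0636), which was -0.60 (limma adjusted p = 0.00611) without control replicate 1 of 1 h and -0.26 without replicate 2, and the treated arrays overlapped the controls at every time. PRKD2, which encodes PKD2, read 8.72, 9.42 and 9.0 on control arrays at 1 h, 8.55, 8.70 and 8.81 at 3 h, and 8.83, 8.81 and 8.69 at 6 h, and 8.68, 8.77 and 8.81, then 8.95, 8.62 and 8.73, then 8.95, 8.68 and 8.74 on aminaphtone arrays. Apart from control replicates 2 and 3 of 1 h, all PRKD2 values lay between 8.55 and 8.95. Its average treatment difference was -0.07, with a 95% confidence interval of -0.25 to 0.11.

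All 9 genes took part in the scatter of the 1 h controls. Control replicate 1 exceeded replicate 2 by 0.89 for PRKCA, 0.55 for PRKCE, 0.96 for PRKCH, 2.14 for PRKCI, 1.08 for PRKD1 and 0.91 for PRKD3. For PRKCD, PRKCZ and PRKD2 replicate 1 was the lower one, by -0.55, -0.67 and -0.70. In all 9 genes the aminaphtone mean of 1 h lay closer to replicate 1 than to replicate 2. The main direction of scatter within groups, the first principal component of the residuals of all tested transcript clusters, held 59.9% of the residual variance and put these arrays at -46.6 and 42.5, with replicate 3 at 4.1. Over the 18 arrays, deviations from the group means went with this score at r = -0.97 for PRKCI. For PRKD3 r was -0.89, for PRKCE -0.72, for PRKD1 -0.65, for PRKCA -0.64 and for PRKCH -0.58. For PRKD2 it was 0.82, for PRKCZ 0.78 and for PRKCD 0.68. These correlations share the arrays from which the component was made. Without control replicate 1 all 9 genes were called between treatment and control at 1 h, but so were 53.9% of all transcript clusters. Without replicate 2 the PRKCA difference at 1 h was 0.23 in place of 0.57. For 6 against 1 h in the control arm, calls were also gained without replicate 1 by PRKCI and PRKD2, without replicate 2 by PRKCE and without replicate 3 by PRKCA. The shares of all transcript clusters called in those fits were 44.8%, 20.7% and 20.3%. From 1 to 3 h in that arm calls were also gained without replicate 1 by PRKD2, and without replicate 2 by PRKCE and PRKCH. The shares were then 36.2% and 10.6%. With the replicate number as a block within each time, PRKCA (limma adjusted p = 0.0436), PRKCD (0.0455) and PRKCI (0.0447) were called at 1 h, as were 15.6% of all transcript clusters. What set these arrays apart was not tested.

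**Figure D4:**
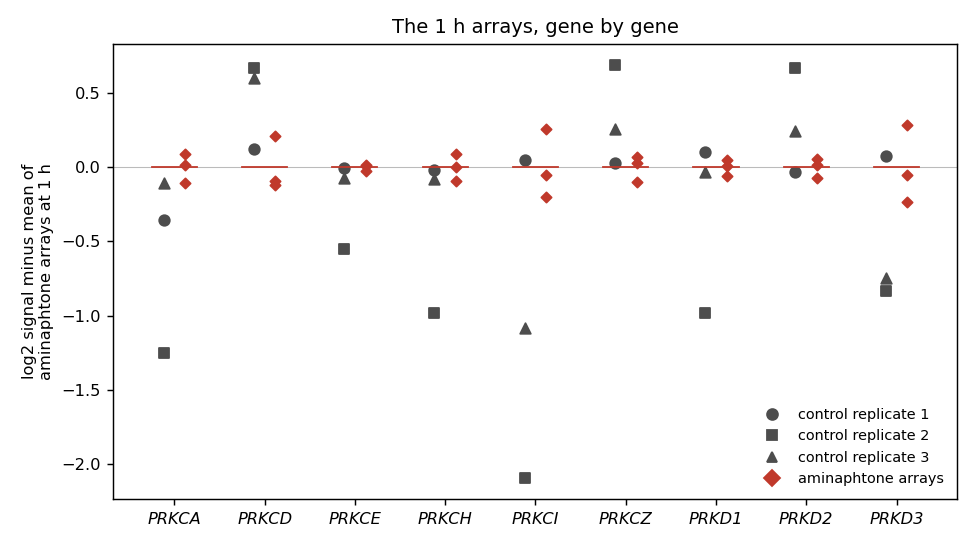
Log2 signal of each of the 9 genes on the 6 arrays of 1 h, as the difference from the mean of the 3 aminaphtone arrays, with control replicates numbered. Control replicate 2 lies farthest from the aminaphtone mean for each of the 9 genes and replicate 1 lies nearer to it, with a gap of 2.14 between replicates 1 and 2 for PRKCI.

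The genes around the kinases were taken from lists by role, which were fixed with earlier results of these data known. None of the list genes was called for treatment at a single time. For the treatment average 2 were, both higher with aminaphtone, where 0.424% of all transcript clusters were called higher. LPIN1, a phosphatase that makes diacylglycerol, was 0.47 higher (SE 0.0886, 1.38-fold, limma adjusted p = 0.02), 1 of 12 genes of the lipid list. This call was lost without aminaphtone replicate 1 of 1 h, control replicate 1 of 6 h or aminaphtone replicate 3 of 6 h. Within the aminaphtone arm LPIN1 fell by 0.96 from 1 to 6 h, from a mean of 8.93 to 7.97 (limma adjusted p = 0.000405). No change of LPIN1 over time was called in the control arm. PDPK1, the kinase that phosphorylates the activation loop of PKC isoforms, was 0.30 higher (SE 0.0678, limma adjusted p = 0.047), 1 of 13 of its list, a call that held in only 3 of 18 fits with 1 array left out, those without a control of 1 h. PDPK1 is named for this count, outside the rule for naming genes and after its value was seen.

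Over time more of them changed. The counts that follow stand against 11.3% of all transcript clusters called higher and 15.2% called lower from 1 to 6 h in the control arm, and 6.01% and 10.7% in the aminaphtone arm, so on 10 genes 1 or 2 calls are near the background. Of 9 phospholipases C, the enzymes that make diacylglycerol, none rose and 3 fell from 1 to 6 h in the control arm and 4 fell in the aminaphtone arm, where PLCB4 went from 10.22 ± 0.183 to 8.19 ± 0.314 (SD, n = 3, limma adjusted p = 0.000171). PLCD1 fell in both arms, by 1.21 with control and 0.98 with aminaphtone. Of 12 diacylglycerol kinases and lipid phosphatases, which turn over the signal, 3 rose and 3 fell in each arm. PLPP3, a lipid phosphatase, rose by 1.64 in the control arm and by 2.01 in the aminaphtone arm (limma adjusted p = 0.000126 and 2.07e-05). DGKE, a diacylglycerol kinase, rose by 1.56 and 0.84. Of 10 other diacylglycerol receptors, 2 fell in the control arm and 1 in the aminaphtone arm. UNC13C fell in both, to means below the signal filter, and CDC42BPG fell by 0.34 in the control arm.

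Of 13 genes that set the phosphorylation and stability of PKC, 5 rose and 2 fell from 1 to 6 h in the control arm and 3 rose in the aminaphtone arm. PHLPP2, a phosphatase that acts on PKC, rose by 1.27 and 0.84, and PPP2CB, a catalytic subunit of protein phosphatase PP2A, by 0.68 and 0.51. MLST8, a subunit of mTOR complexes, fell by 0.80 in the control arm. Of 16 substrates and anchors, 3 rose and 2 fell in the control arm and 1 fell in the aminaphtone arm. The anchoring proteins AKAP13 and AKAP12 rose by 1.25 and 1.35 in the control arm, and PEBP1, a substrate of PKC, fell by 0.42.

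Of 13 polarity partners of the atypical isoforms, 3 rose and 7 fell from 1 to 6 h in the control arm and 1 rose and 3 fell in the aminaphtone arm. The median difference in the control arm was -0.49 over these 13 and -0.01 over all transcript clusters. PARD6B, an adaptor that binds PKCι and PKCζ, fell from 12.25 ± 0.778 to 10.77 ± 0.23 (SD, n = 3, limma adjusted p = 0.000715) with control and by 1.95 with aminaphtone (limma adjusted p = 8.24e-05). MAP2K5, the kinase of the ERK5 pathway that binds atypical PKC, fell by 0.88 and 0.63, and WWC1 rose by 0.78 in each arm. PRKCI and PRKCZ themselves were not called.

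Of 16 substrates and partners of PKD, 1 rose and 3 fell in the control arm and 1 fell in the aminaphtone arm. HSPB1, a small heat shock protein that PKD phosphorylates, fell by 0.84 with control and 0.67 with aminaphtone, and HDAC5, a class IIa histone deacetylase that PKD drives out of the nucleus, fell by 0.89 with control. HDAC9, of the same class, rose by 0.51 from 1 to 3 h in the control arm. Of 11 genes that link PKC to NF-κB through CARD proteins, BCL10 and MALT1, 3 rose in the control arm and none in the aminaphtone arm from 1 to 6 h. They were TAB2 (0.92), MALT1 (0.68) and TRAF6 (0.70). All groups received IL-1β, and whether these rises belong to PKC signalling was not tested. Of 9 genes that link PKC to MAP kinases, 1 rose and 4 fell in the control arm and 1 rose and 3 fell in the aminaphtone arm. MAP2K1, the kinase that activates ERK, rose by 0.96 and 0.40, and the inhibitors SPRY2 and SPRY4 fell by 0.62 and 0.97 in the control arm. The arms were not tested against each other for these list genes.

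The control values of the list genes use the scattered arrays of 1 h, as the kinase genes do. Of the changes from 1 to 6 h named above, those of CDC42BPG, TAB2, MALT1 and TRAF6 were lost in some fits with 1 array left out, holding in 12, 16, 14 and 7 of 18, and in the aminaphtone arm so were those of DGKE, PHLPP2, PPP2CB and MAP2K5, holding in 6, 14, 12 and 14. TAB2 was lost without control replicate 2 of 1 h or 3 of 6 h, and MALT1 without control replicate 2 or 3 of either time. The other named changes from 1 to 6 h held in all 18 fits. Without control replicate 1 of 1 h, the CARD list had 6 genes higher and 2 lower in the control arm. The PKD list then had 4 higher and 6 lower. In that fit 44.8% of all transcript clusters were called from 1 to 6 h in the control arm, in either direction.

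By the Pearson correlation of log2 signals over the 18 arrays, the single-symbol genes most like PRKCD were IL4R (r = 0.986), EHD1 (0.985) and NFKB2 (0.968). Those most like PRKD1 were SARAF (0.945), AMOT (0.944) and MANBA (0.944). The closest to PRKCA were MAPKAPK5 (0.961), SIPA1L1 (0.958) and CACHD1 (0.938). The points are the 6 groups of 3 arrays, so each r joins differences between groups with scatter within them. Among the 9 kinases, PRKCZ and PRKD2 were the closest pair (r = 0.88, and 0.96 for the deviations from group means), and PRKCI ran opposite to both (-0.75 and -0.82).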

How the data were processed

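Each of 18 ECV304 samples was hybridised to 1 Affymetrix Human Gene 1.0 ST array. The authors deposited log2 values, made with RMA (background correction, quantile normalization and probe summary) in Affymetrix Expression Console, per the submitters' processing notes. The version, the genome build and which arrays were normalized together are not given in the sources used here. RMA forces like distributions on the arrays, so a shift shared by all genes would not show. Of 28869 transcript clusters 21062 are annotated, 19310 with 1 symbol, 1752 with several, which were not used to name genes. The 15796 annotated ones with a mean above 6.193 were fitted in limma 3.58.1 (R 4.3.3) with 1 mean per group (12 residual and 4.814 prior degrees of freedom), two-sided, threshold 0.05. For arrays, their number limits the precision. The replicates are labelled as independent, with no more said of their source.

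The 9 genes, the lists and the tests were chosen with earlier results of these data known. Named genes were the 9, PRKCB and PRKCQ, up to 3 called genes per list by adjusted p, and the 3 genes most like each of PRKCD, PRKD1 and PRKCA, which had the smallest p over all groups. Promoter windows came from RefSeq, matched by symbol for all 9 genes. Equal replicate numbers went with correlated deviations at 1 h (r = 0.746, 0.411 and 0.322) and between the 1 and 3 h controls (0.313, 0.359 and 0.258), taken as pairs from the data. In no other compared groups did all 3 numbers do so. Between the arms at 6 h r was 0.456, -0.0862 and 0.711. Between the aminaphtone arrays of 3 and 6 h it was 0.662, -0.27 and 0.691. The script was tested on simulated data. Alternatives were the replicate block, no and a stricter filter, trend and robust variance, median-centred arrays, only the groups compared, and leaving out each array. The array gradient as a covariate and leaving out all 1 h arrays were chosen after seeing the data.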

Additional observations from a re-analysis of the deposited data

How the results depend on the processing

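Counts below are of the 9 genes called, with the share of all transcript clusters called in parentheses where many were. Leaving out 1 array at a time gave 0 to 9 at 1 h (53.9% at the highest), 0 to 1 at 3 h, 0 to 0 at 6 h and 0 to 4 for the treatment average (21.8% at the highest). For 3 against 1 h, 6 against 1 h and 6 against 3 h it gave 1 to 5, 1 to 4 and 0 to 1 in the control arm. In the aminaphtone arm it gave 1 to 4, 3 to 4 and 0 to 0, and for the interaction 0 to 3. The highest control counts from 1 h, 5 and 4, came without control replicate 1 of 1 h (36.2% and 44.8%). Shares for the other ranges of these times and the interaction are not given, so those counts are not read as a result about the 9 genes. The replicate block within each time gave 3 at 1 h (15.6%) and 2 for the average (4.65%; PRKCA, and PRKCE at limma adjusted p = 0.0364), and the replicate block over all groups changed no call. For control 3 against 1 h, no filter (9.15%), the stricter filter (16.7%) and centring (12.4%) each gave 1. So did the stricter filter for control 6 against 1 h (33.9%), where PRKD3 lies under it and was not tested. With only the groups compared in the fit, the count was 1 at 6 h (PRKCA, limma adjusted p = 0.0455; 0.443%). In that setting it was 0 for control 3 against 1 h (1.44%) and 0 for control 6 against 1 h (6.89%). It was 4 for aminaphtone 3 against 1 h (16.9%) and 5 for aminaphtone 6 against 1 h (32.9%). Without the 1 h arrays it was 3 for the average (1.73%) and 1 for control 6 against 3 h (1.75%). The array gradient as a covariate gave 6 at 1 h (48%), 2 at 3 h (2.27%) and 4 for the average (28.9%). In the order above it gave 7 (37.7%), 5 (47.5%) and 1 (9.9%) for the control times, 5 (28.8%), 5 (38.2%) and 1 (11.1%) for the aminaphtone times, and 3 (24.1%) for the interaction. It is made from the residuals of the same fit, so by construction it leaves the differences as they were and shrinks their error. Among differences called in at least 1 fit, 4 changed sign in another, with no call in that fit or the full one: PRKD1 at 1 h without control replicate 2 of 1 h (-0.03, range without 1 array -0.03 to 0.51), PRKCI averaged without the 1 h arrays (-0.15), PRKCH in control 3 against 1 h without control replicate 1 of 1 h (0.01, range -0.47 to 0.01) and PRKCI in control 6 against 1 h without control replicate 2 of 1 h (-0.11, range -0.11 to 0.96). Of the 47 of 90 differences called in no fit, 25 changed sign in at least 1, none of them larger than 0.17 in size. The causes of these changes were otherwise not tested. Each gene has 1 row, so averaging rows changes nothing.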
